A study of Caenorhabditis elegans with 8 samples.

Results

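The mRNAs of the proteasome were followed in whole Caenorhabditis elegans exposed to zidovudine, a thymidine analogue used as an inhibitor of reverse transcriptase, or to its solvent DMSO. The genes were chosen by a rule on names, set with earlier results of these data known. It took the pas and pbs genes of the core particle, and the rpt and rpn genes of the regulatory particle. The rule found 33 genes among the 17826 of the deposited table, of which 14 encode the core particle and 19 the regulatory particle. All 33 were among the 12382 genes tested, which had a mean of at least 0 log2 CPM (the log2 of a gene's reads relative to the size of its library), so none was left out for low values.

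One group was made up of wild-type N2 worms kept from larval stage 4 for 24 h on plates with 50 µM zidovudine, and the other group of N2 worms kept for the same time on plates with DMSO. Plates of both groups also held 5-fluorouracil, and both groups were harvested as day 1 adults, so the DMSO worms are a control for zidovudine and not untreated animals. Each group has 4 libraries, here numbered as in the labels, with 30449021 to 56930820 reads in genes per library. Whether the samples of a group came from separate cultures is not stated, so the p-values measure only the spread between these samples, which may be technical. The labels' descriptions open with 1 code for 7 of the libraries and with a second code for DMSO 4. What the codes stand for was not taken as known. In DMSO 4, 8.24% of the genes had 0 reads, against 1.07% to 2.17% in the others. The second code and the DMSO 4 sample cannot be told apart.

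The proteasome is the barrel-shaped protease that breaks down ubiquitin-tagged proteins in every cell. Its core particle is a stack of outer alpha rings, which control entry, around inner beta rings, which hold the protease sites. The regulatory particle caps the core: a ring of rpt ATPases unfolds the substrate and feeds it into the core, while the rpn subunits bind ubiquitin, remove it and hold the cap together. In worms and mammals the genes of both particles are known to be raised together when proteasome activity is blocked, through SKN-1A in worms and its relative NRF1 in mammals, and in worms the proteasome is also linked to lifespan and to the germ line.

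No proteasome gene passed an adjusted p of 0.05 in limma, whose smallest adjusted p for a member was 0.369, for pas-4. Over all tested genes 21 passed, or 0.17%. At an unadjusted p of 0.05 it was 1 of the 33 genes, pas-4, against 11.8% of all tested genes, and the same 0 and 1 were found by limma with voom weights on the recovered reads. The fold changes, given throughout as log2 of zidovudine over DMSO, ran from −0.14 for pbs-4 to 0.073 for rpn-6.1, and the 95% intervals of all 33 lay between −0.31 and 0.24. The interval held 0 for 32 of the 33 genes, pas-4 being the exception. Each interval is for 1 gene alone and rests on the spread between these samples, which may be technical. Its SE draws in part on the variance of all tested genes in limma, so it does not follow from the SDs of that gene alone. A p above the threshold does not show that the levels were equal. In whole worms a difference in the number of cells of a type and a difference in RNA per cell cannot be told apart, which holds for every value here.

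**Figure D1:**
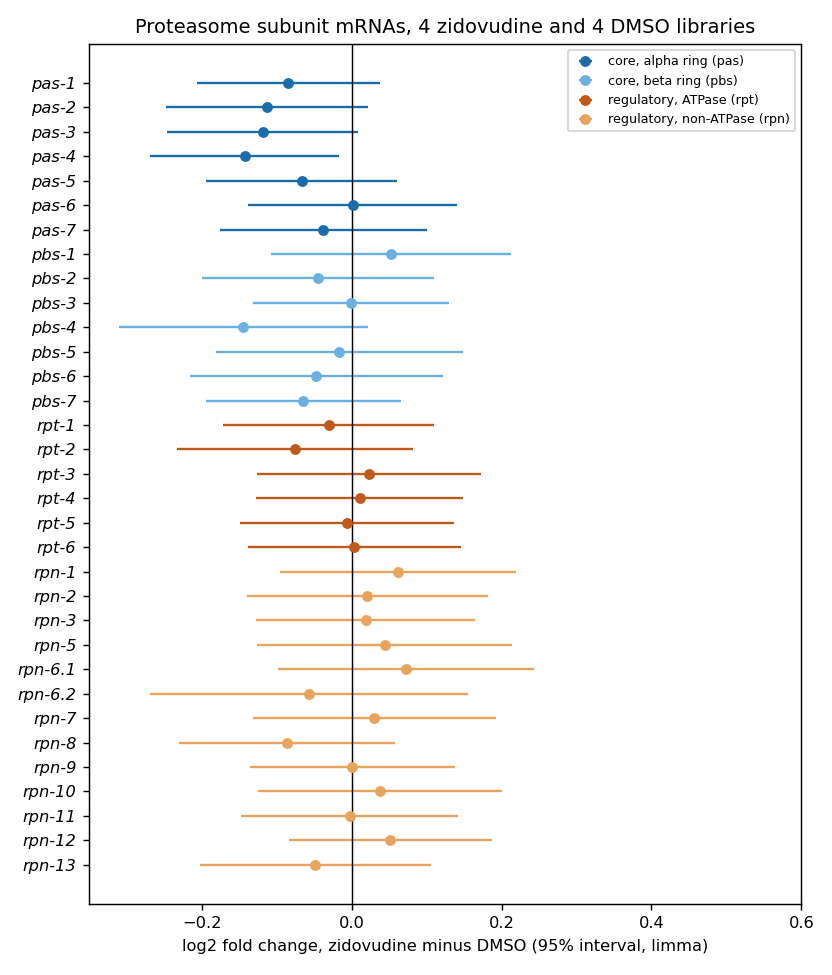
Log2 fold change of each proteasome gene, zidovudine minus DMSO (x axis), with its 95% interval from limma, for 4 libraries in each group; rows are genes, coloured by ring or subunit class. Of the 14 core genes 12 lie left of 0, and the interval of pas-4 alone does not reach 0.

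The fold changes were counted by sign in each particle, as a description with no test. Of the 14 core genes, 12 had a value below 0, with a median of −0.056, and this median stayed below 0 under each other scaling of the libraries. Of the 19 regulatory genes, 7 were below 0, with a median of 0.011; under quantile normalization 12 were below 0 and the median was −0.0071. Over all tested genes 47.7% were below 0 and the median was 0.0082. The core median was −0.031 without zidovudine 1, −0.087 without DMSO 1 and −0.028 without DMSO 2, so single libraries moved it by more than 1.5 times. The regulatory median was −0.0053 without zidovudine 3, −0.017 without zidovudine 4, −0.0075 without DMSO 1 and −0.0050 without DMSO 4, with 13, 15, 11 and 11 of the 19 genes below 0. It was 0.039 without zidovudine 1, 0.037 without zidovudine 2 and 0.035 without DMSO 2, with 5, 6 and 5 genes below 0. Neither the sign of the regulatory median nor the count behind it was thus steady to the loss of 1 library. For single genes, leaving out DMSO 4 turned the sign or moved the fold change by over 1.5 times for 24 of the 33, and leaving out 1 of the other libraries did so for 13 to 23. Under any 1 library left out, 28 of the 33 moved that far; the other 5 were pas-1, pas-2, pas-3, pas-4 and pbs-7.

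The 7 alpha-ring genes had a median fold change of −0.084, and 6 of them were below 0. The mRNA of pas-4, an alpha-ring subunit, had 7.74, 7.88, 7.86 and 7.80 log2 CPM in zidovudine libraries 1 to 4, against 7.96, 8.001, 7.90 and 7.99 log2 CPM in DMSO libraries 1 to 4. Every zidovudine library lay below every DMSO library, with zidovudine 1 the lowest. The means were 7.82 ± 0.061 in zidovudine and 7.96 ± 0.045 in DMSO (SD, n = 4 each). The difference of −0.14 (SE 0.059, 95% interval −0.27 to −0.017) equals a change of −9.41%, with an interval from −16.99% to −1.14%, and did not pass after adjustment over all genes in limma (adjusted p = 0.369). The gene lies on chromosome I at 8727218 to 8728487 (build WBcel235), in 4 exons of 883 nt in all.

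The mRNA of pas-3, another alpha-ring subunit encoded on chromosome I at 5105110 to 5106048, had 8.34, 8.43, 8.38 and 8.38 log2 CPM in zidovudine libraries 1 to 4, against 8.48, 8.51, 8.45 and 8.57 log2 CPM in DMSO libraries 1 to 4. As for pas-4, the groups did not overlap, with zidovudine 2 and DMSO 3 the closest to each other. The difference was −0.12 (SE 0.060, limma adjusted p = 0.456). Groups without overlap were found for these 2 of the 33 genes, both lower in zidovudine, against 6.65% of all tested genes in either direction and 2.82% in that direction.

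The mRNA of pas-2, on chromosome V at 10770368 to 10771351, had 7.94, 8.06, 8.01 and 7.91 log2 CPM in zidovudine libraries 1 to 4, against 8.08, 8.14, 7.99 and 8.16 log2 CPM in DMSO libraries 1 to 4. DMSO 3 lay inside the zidovudine range, so the groups overlapped, and the difference was −0.11 (SE 0.063, limma adjusted p = 0.509). The other 4 alpha-ring genes had fold changes of −0.084 for pas-1, −0.067 for pas-5, −0.038 for pas-7 and 0.0015 for pas-6, with limma adjusted p-values of 0.580 to 0.996.

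The 7 beta-ring genes had a median fold change of −0.044, with 6 below 0. The median was 0.0067 without zidovudine 1 and 0.0019 without DMSO 2, with 3 genes below 0 in both, −0.080 without DMSO 1 with 6 below 0, and −0.015 without DMSO 4 with 4 below 0, so its sign rested on single libraries. The mRNA of pbs-4, a beta subunit without a protease site of its own in yeast and mammals, had 7.56, 7.88, 7.88 and 7.66 log2 CPM in zidovudine libraries 1 to 4, against 7.88, 7.88, 7.80 and 7.99 log2 CPM in DMSO libraries 1 to 4. Zidovudine 1 and 4 were below all DMSO libraries, whereas zidovudine 2 and 3 lay among them. The difference of −0.14 (SE 0.078, 95% interval −0.31 to 0.022, limma adjusted p = 0.487) was the largest of any member in size, and it was −0.082 without zidovudine 1. The gene lies on chromosome I at 3908747 to 3909701.

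Protease activity of the core comes from pbs-1, pbs-2 and pbs-5, whose yeast and mammalian relatives cleave after acidic, basic and hydrophobic residues. The mRNA of pbs-5, the chymotrypsin-like subunit, had 7.57, 7.81, 7.82 and 7.79 log2 CPM in zidovudine libraries 1 to 4, against 7.60, 7.87, 7.71 and 7.87 log2 CPM in DMSO libraries 1 to 4. The low value in each group came from its library 1, and the groups overlapped over nearly their whole range. Its fold change was −0.016 (SE 0.077, 95% interval −0.18 to 0.15, limma adjusted p = 0.949). Fold changes of the other 2 protease subunits were 0.053 for pbs-1 and −0.044 for pbs-2, with limma adjusted p-values of 0.795 and 0.824. The remaining beta subunits, which have no protease site in yeast and mammals, gave −0.064 for pbs-7, −0.047 for pbs-6 and −0.00079 for pbs-3, with limma adjusted p-values of 0.684, 0.831 and 0.998.

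**Figure D2:**
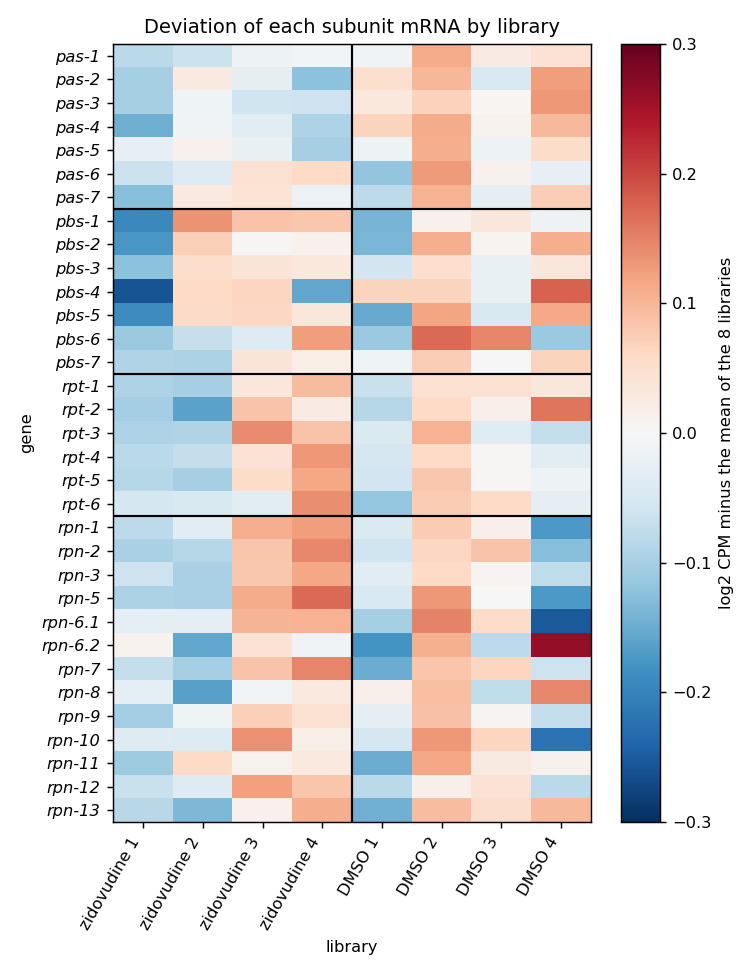
Deviation of each proteasome mRNA (rows) from its mean over the 8 libraries, in log2 CPM (colour scale), in each library (columns, zidovudine then DMSO); lines part the groups and the 4 subunit classes. In the zidovudine group, zidovudine 1 is lowest for 11 of 14 core genes, and in the DMSO group DMSO 2 is highest for 23 of 33 genes.

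The 6 rpt genes encode the ATPases of the regulatory particle, with 3 values above 0 and 3 below (median −0.0013, between −0.044 without zidovudine 4 and 0.025 without DMSO 2). The lowest was rpt-2, on chromosome V at 6016059 to 6017669, an ATPase whose yeast relative helps to open the gate of the core. Its mRNA had 8.40, 8.34, 8.59 and 8.52 log2 CPM in zidovudine libraries 1 to 4, against 8.42, 8.56, 8.52 and 8.66 log2 CPM in DMSO libraries 1 to 4. The ranges overlapped, and the fold change of −0.076 (SE 0.074, limma adjusted p = 0.692) was −0.035 without zidovudine 2 and also without DMSO 4, and −0.12 without zidovudine 3 and also without DMSO 1. The other ATPase genes lay between −0.031 for rpt-1 and 0.023 for rpt-3, with rpt-5 at −0.0062, rpt-6 at 0.0035 and rpt-4 at 0.011, and with limma adjusted p-values of 0.870 to 0.989.

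Among the 13 rpn genes, 9 had fold changes above 0 and 4 below (median 0.021, between −0.014 without zidovudine 4 and 0.057 without zidovudine 1, and −0.0032 without DMSO 4). The most negative was rpn-8, on chromosome I at 4175319 to 4177271, a lid subunit that pairs with the deubiquitinase RPN-11. Its mRNA had 8.01, 7.87, 8.03 and 8.07 log2 CPM in zidovudine libraries 1 to 4, against 8.05, 8.13, 7.96 and 8.18 log2 CPM in DMSO libraries 1 to 4. The groups overlapped, and the fold change was −0.086 (SE 0.068, limma adjusted p = 0.627), with −0.046 without zidovudine 2 and −0.052 without DMSO 4.

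The scaffold subunit rpn-1, which in yeast docks ubiquitin-carrying shuttle proteins and whose gene lies on chromosome IV at 6906420 to 6909913, had 8.62, 8.66, 8.81 and 8.82 log2 CPM in zidovudine libraries 1 to 4, against 8.65, 8.77, 8.71 and 8.52 log2 CPM in DMSO libraries 1 to 4. Zidovudine 3 and 4 were above all DMSO libraries, while zidovudine 1 and 2 lay among them. Its fold change was 0.062 (SE 0.074, limma adjusted p = 0.749), and 0.015 without DMSO 4.

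The ubiquitin receptor rpn-10 had 7.55, 7.54, 7.72 and 7.60 log2 CPM in zidovudine libraries 1 to 4, against 7.54, 7.72, 7.65 and 7.37 log2 CPM in DMSO libraries 1 to 4. DMSO 4 was the lowest of all libraries and the rest overlapped. The fold change of 0.038 (SE 0.077, limma adjusted p = 0.862) was −0.030 without DMSO 4 and −0.0018 without zidovudine 3, so its sign turned with single libraries. The gene lies on chromosome I at 10730712 to 10732424. The other ubiquitin receptor gene, rpn-13, had a fold change of −0.048, which was −0.011 without zidovudine 2 and −0.10 without DMSO 1, and the deubiquitinase gene rpn-11 one of −0.0027, with limma adjusted p-values of 0.806 and 0.993.

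The lid subunit rpn-6.1, which in worms has been tied to proteasome assembly and to the long life of animals without a germ line, had the highest fold change of any member. Its mRNA had 7.66, 7.66, 7.79 and 7.79 log2 CPM in zidovudine libraries 1 to 4, against 7.59, 7.84, 7.75 and 7.44 log2 CPM in DMSO libraries 1 to 4. DMSO 2 was above all zidovudine libraries and DMSO 4 was the lowest of the 8. The difference of 0.073 (SE 0.080, 95% interval −0.099 to 0.24, limma adjusted p = 0.727) was 0.0011 without DMSO 4 and 0.13 without DMSO 2. The gene lies on chromosome III at 6959110 to 6962001.

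Its paralog rpn-6.2, on chromosome III at 8999817 to 9001999, was the weakest member, with 738 to 1537 reads per library. It had 4.71, 4.54, 4.74 and 4.69 log2 CPM in zidovudine libraries 1 to 4, against 4.52, 4.81, 4.62 and 4.96 log2 CPM in DMSO libraries 1 to 4. The zidovudine libraries lay within the DMSO range, and DMSO 4, which was lowest for rpn-6.1, was highest for rpn-6.2. The CPM of rpn-6.1 was 7.75, 8.68, 8.28 and 8.60 times that of rpn-6.2 in zidovudine libraries 1 to 4, and 8.41, 8.19, 8.73 and 5.56 times in DMSO libraries 1 to 4. The ratio was thus lowest in DMSO 4, with the other 7 libraries close together. How reads shared by the paralogs were counted is not given in the sources used here, so the values of both are uncertain.

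The remaining rpn genes were the base scaffold rpn-2 and the lid subunits rpn-3, rpn-5, rpn-7, rpn-9 and rpn-12, with fold changes from 0.0011 for rpn-9 to 0.052 for rpn-12 and limma adjusted p-values of 0.757 to 0.997. Some of these share exonic sequence with a neighbour. Of the 33 genes, 11 overlap an exon of another gene in the Ensembl annotation, 10 of them on the opposite strand. The overlap covers more than 10% of the exons for rpn-7, by 394 nt with nemt-1, and for rpn-9, by 140 nt with a non-coding RNA, and is 4 to 103 nt for the other 8. On the same strand pbs-7 shares 70 nt with K07A12.5. The library kit kept the strand, but whether reads were counted by strand is not given in the sources used here, so reads of these stretches may belong to either gene.

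**Figure D3:**
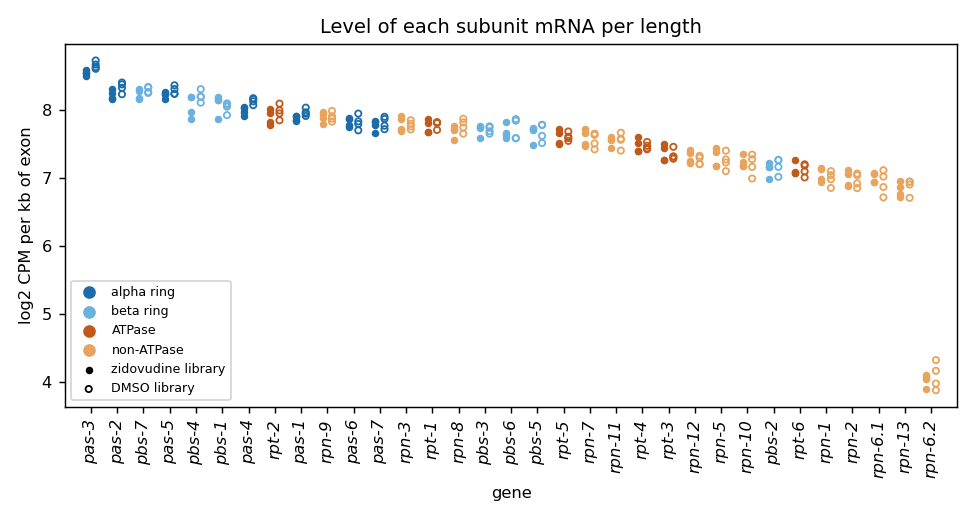
Level of each proteasome mRNA in log2 CPM per kb of exon (y axis), ordered by the mean over 8 libraries (x axis); filled points are zidovudine libraries and open points DMSO libraries, coloured by subunit class. Core genes fill the 7 highest places, and rpn-6.2 lies far below the rest.

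The genes were put in order of level by log2 CPM per kb of exon. The ratios of rpn-6.1 to rpn-6.2 above and the particle means below were not divided by length. The highest was pas-3, at 8.61 log2 CPM per kb over the 8 libraries, followed by pas-2 at 8.29, pbs-7 at 8.27, pas-5 at 8.26, pbs-4 at 8.14, and pbs-1 and pas-4 at 8.07. The 7 highest levels thus belonged to core genes, as did 10 of the 14 highest. Median levels per kb were 8.07 log2 CPM for the alpha ring, 7.72 for the beta ring, 7.54 for the ATPases and 7.28 for the rpn genes. Leaving out rpn-6.2, at 4.06 log2 CPM per kb, the other 32 genes lay within a 3.36-fold range down to rpn-13 at 6.86. Of the 32 pairs of neighbours in this order, 30 overlapped across the libraries, the exceptions being pas-3 over pas-2 and rpn-13 over rpn-6.2.

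Together the 33 genes took 0.803%, 0.804%, 0.842% and 0.838% of the reads in zidovudine libraries 1 to 4, against 0.818%, 0.884%, 0.835% and 0.820% in DMSO libraries 1 to 4. The share of the core genes was 0.306%, 0.324%, 0.319% and 0.309% in zidovudine libraries 1 to 4, against 0.322%, 0.345%, 0.322% and 0.334% in DMSO libraries 1 to 4. Only zidovudine 2 reached into the DMSO range for the core share, whose means were 0.315% ± 0.0081 in zidovudine and 0.331% ± 0.011 in DMSO (SD, n = 4 each). The regulatory share averaged 0.507% ± 0.023 in zidovudine and 0.508% ± 0.023 in DMSO (SD, n = 4 each).

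The core was then set against the regulatory particle within each library, as the mean log2 CPM of the 14 core genes minus that of the 19 regulatory genes. It was −0.12, 0.024, −0.12 and −0.17 in zidovudine libraries 1 to 4, against −0.034, −0.056, −0.080 and 0.032 in DMSO libraries 1 to 4. Zidovudine 1, 3 and 4 were below all DMSO libraries, but zidovudine 2 was above all of them except DMSO 4, so the groups overlapped. The means were −0.097 ± 0.084 in zidovudine and −0.035 ± 0.048 in DMSO (SD, n = 4 each), and their difference of −0.063 was smaller than the pooled SD of 0.068. It was −0.10 without zidovudine 2, −0.039 without zidovudine 4 and −0.040 without DMSO 4, the library with the other code in its label.

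The fold changes of all tested genes moved with transcript length in these libraries, and the core genes are shorter. Core genes have 801 to 1059 nt of exon with a median of 880.5 nt, and regulatory genes 855 to 3171 nt with a median of 1493 nt. The median fold change of all tested genes was −0.34 for the 678 genes under 500 nt, −0.067 from 500 to under 1000 nt, 0.015 from 1000 to under 2000 nt, 0.052 from 2000 to under 5000 nt and 0.11 from 5000 nt up. Within the length range of the core genes the median of the 1632 tested genes was −0.027, and within that of the regulatory genes the median of the 8510 tested genes was 0.019. Across the 33 proteasome genes, which share their libraries, the fold change and the length had a Spearman correlation of 0.467, against 0.366 across all 12376 tested genes with a length. Within the 14 core genes it was 0.260 and within the 19 regulatory genes 0.281.

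**Figure D4:**
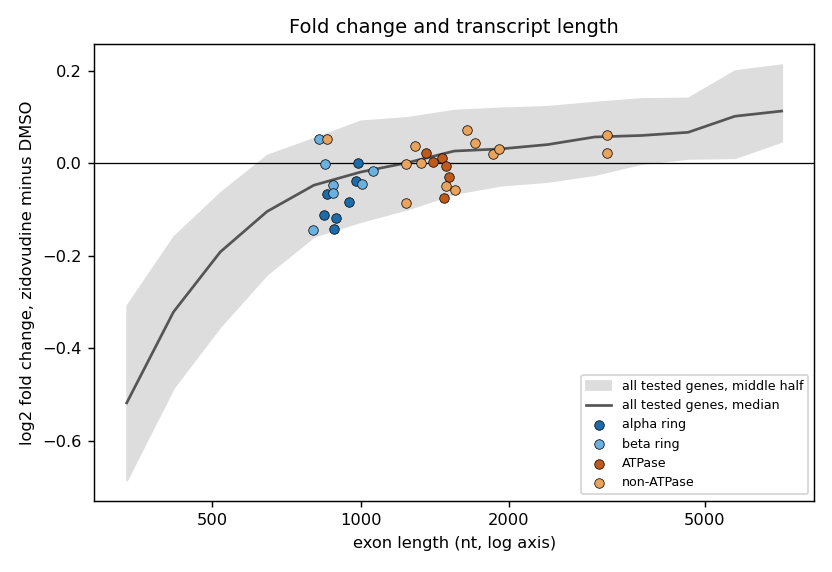
Log2 fold change, zidovudine minus DMSO (y axis), against exon length in nt on a log axis (x axis), for the proteasome genes as points and for all tested genes as the median (line) and the range from the lower to the upper quartile (band). The core genes sit at the short end, where the median of all genes is below 0, and the 2 longest members, rpn-1 and rpn-2, lie above 0.

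When each library's trend on length was taken out of the log2 CPM, the core genes had a median fold change of −0.012 and the regulatory genes one of −0.0050. Then 9 of 14 core genes and 13 of 19 regulatory genes were below 0. The core minus the regulatory mean was −0.11, −0.041, −0.048 and −0.075 in zidovudine libraries 1 to 4, against −0.067, −0.070, −0.070 and −0.062 in DMSO libraries 1 to 4. The zidovudine values lay on both sides of the DMSO values, and the DMSO values were closer together than before. The means were −0.068 ± 0.030 in zidovudine and −0.067 ± 0.0037 in DMSO (SD, n = 4 each), and the difference was −0.00064, against −0.063 before. Of the rings, the beta genes then had a median fold change of 0.0021 and the alpha genes −0.048. The value of pas-4 was −0.093, still with the smallest adjusted p of the members in limma (0.467). The trend was fitted on all tested genes with a length. Among the proteasome genes, short length and membership of the core mostly go together, so from these genes their parts in the difference cannot be told apart. The exception is rpn-12, a regulatory gene with 855 nt, whose fold change before removal of the trend was 0.052.

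**Figure D5:**
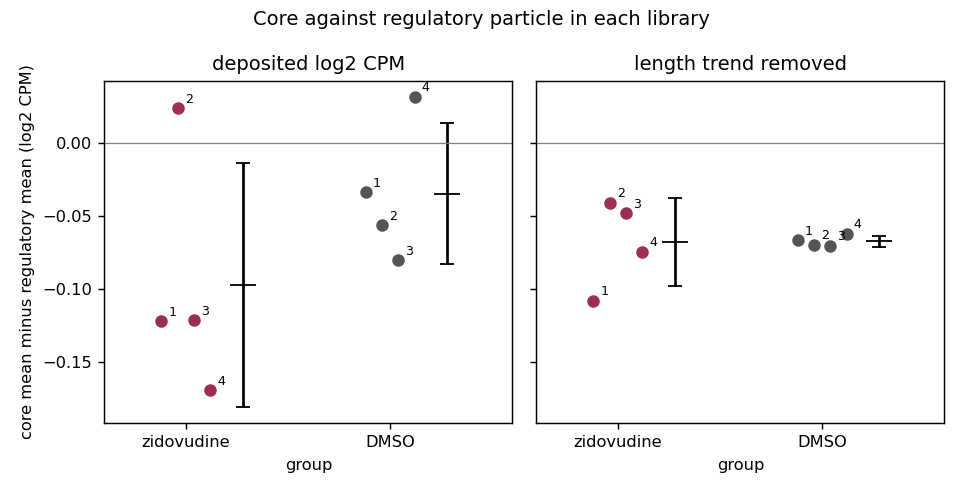
Mean log2 CPM of the 14 core genes minus that of the 19 regulatory genes in each library (points, numbered by library), with the group mean and SD beside them, as deposited (left) and with each library's length trend removed (right). The group means differ by −0.063 on the left and by −0.00064 on the right.

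The members also varied together within the groups. After the group means were taken out, the correlation of 2 core genes over the 8 libraries had a median of 0.620, with 86 of 91 pairs above 0, and that of 2 regulatory genes a median of 0.700, with 163 of 171 pairs above 0. A core gene and a regulatory gene had a median correlation of 0.375, with 209 of 266 pairs above 0. With the length trend removed, the medians were 0.731 within the core, 0.656 within the regulatory particle and 0.677 between them, the last with 265 of 266 pairs above 0. The genes share the same 8 libraries, and these values describe them only. Correlations of other genes were not computed, so these values do not show that the proteasome genes varied together more than other genes. In the zidovudine group zidovudine 1 was lowest for 11 of the 14 core genes and 8 of the 19 regulatory genes. Zidovudine 2 was lowest for 11 and zidovudine 4 highest for 12 of the 19 regulatory genes. In the DMSO group DMSO 2 was highest for 10 core and 13 regulatory genes. DMSO 1 was lowest for 10 core and 10 regulatory genes, and DMSO 4 for 0 core genes and 8 regulatory genes.

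Genes that work with the proteasome were read from 7 lists with 76 genes, of which 72 were tested. None of them passed an adjusted p of 0.05 in limma, 4 had an unadjusted p under 0.05 and 44 of 72 were below 0, against the same 11.8% and 47.7% of all tested genes. In the list of proteasome-associated factors, which holds an activator, an assembly chaperone, ubiquitin shuttles and deubiquitinases among others, 2 of 8 genes were above and 6 below 0, with a median fold change of −0.078. The lowest was psme-3, whose product is the worm relative of the PA28 gamma activator that caps the core without ATP or ubiquitin. Its mRNA had 6.02, 6.08, 5.85 and 5.97 log2 CPM in zidovudine libraries 1 to 4, against 6.08, 6.17, 6.24 and 6.46 log2 CPM in DMSO libraries 1 to 4. Zidovudine 2 came next to DMSO 1, but the groups did not overlap, which held for 1 of the 72 genes, against 6.65% of all tested genes. The difference was −0.26 (SE 0.082, 95% interval −0.43 to −0.081, limma adjusted p = 0.249). The assembly chaperone gene psmd-9 had −0.20 (limma adjusted p = 0.390). The exons of psme-3 and psmd-9 have 916 and 683 nt, and all tested genes from 500 to under 1000 nt had a median of −0.067.

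The pathway that raises proteasome genes through SKN-1A had 3 of 6 genes above and 3 below 0, with a median of 0.011 that lay between −0.019 without zidovudine 4 and 0.038 without DMSO 3. The transcription factor gene skn-1, counted here over all its isoforms, had a fold change of 0.026 (SE 0.074, limma adjusted p = 0.907), which was −0.0070 without DMSO 4 and −0.031 without zidovudine 4. The gene of the protease DDI-1, which cleaves SKN-1A, had −0.029 (SE 0.055, limma adjusted p = 0.851), or −0.012 without DMSO 1, and sel-11, an E3 ligase gene of ER-associated degradation, had 0.096 (SE 0.069, limma adjusted p = 0.598), or 0.045 without zidovudine 4. Among the 14 genes of the CDC-48 segregase, which pulls ubiquitin-tagged proteins out of complexes and membranes, 7 had a positive and 7 a negative value (median 0.021, or −0.0039 without DMSO 4 and 0.071 without DMSO 2). The cofactor ubxn-5 had the smallest p of that list, with 578 nt of exon and 967 reads over the 8 libraries. It had 1.29 ± 0.25 log2 CPM in zidovudine and 1.81 ± 0.25 log2 CPM in DMSO (SD, n = 4 each). The difference was −0.53 (limma adjusted p = 0.30). The groups overlapped, with zidovudine 2 at 1.65 and DMSO 3 at 1.58 log2 CPM.

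The ubiquitin and E1 genes had 2 of 4 above and 2 below 0 with a median of −0.052 (−0.014 without DMSO 4, −0.11 without DMSO 1), and ubq-2, a gene for ubiquitin fused to a ribosomal protein, had −0.21 (SE 0.14, limma adjusted p = 0.589), or −0.12 without zidovudine 3 and −0.32 without zidovudine 2. The exons of ubq-2 have 435 nt, and all tested genes under 500 nt had a median of −0.34. Of the E2 enzymes and variants, which pass ubiquitin on, 19 of 23 were tested, 7 above and 12 below 0, with a median of −0.044. In that list ubc-15 had 5.26 ± 0.095 log2 CPM in zidovudine and 5.61 ± 0.30 log2 CPM in DMSO (SD, n = 4 each; difference −0.35, limma adjusted p = 0.306). DMSO 4 was the highest library at 6.05 log2 CPM, and without it the difference was −0.20. The cullin-RING ligase core had 5 of 14 genes above and 9 below 0, with a median of −0.035 and −0.14 for its adaptor ddb-1 (limma adjusted p = 0.440); without DMSO 4 these were −0.022 and −0.094, and without DMSO 2 the median was −0.0074. In the COP9 signalosome, a relative of the regulatory particle's lid that trims NEDD8 from cullins, 2 of 7 genes had a value above 0 and 5 one below (median −0.059, or −0.016 without DMSO 2 and −0.019 without zidovudine 1), and csn-3 had −0.12 (limma adjusted p = 0.448).

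Markers of tissues that a whole worm holds were read beside these values. The pharynx list had 7 of 7 tested genes above 0, of 9 listed, with a median of 0.36, and its summed level was 7.21 to 7.49 log2 CPM in zidovudine and 6.91 to 7.12 log2 CPM in DMSO. The neuron list had 9 of 10 genes above 0, with a median of 0.23 and a summed level of 8.71 to 8.84 log2 CPM in zidovudine and 8.60 to 8.67 log2 CPM in DMSO. The sperm list had 8 of 9 tested genes below 0, of 12 listed, with a median of −0.31 and a summed level of 5.81 to 6.02 log2 CPM in zidovudine and 6.04 to 6.27 log2 CPM in DMSO. The tested sperm gene above 0 was spe-41, with a fold change of 0.38 (limma adjusted p = 0.187).

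For these 3 lists the summed levels of the groups did not overlap, with values higher in zidovudine for pharynx and neurons and lower for sperm. The summed levels of the other lists overlapped between the groups. Of single tested genes, 2 of 7 for pharynx, 3 of 10 for neurons and 4 of 9 for sperm (among them spe-41, higher in zidovudine) did not overlap. Over all tested genes that share was 6.65%. The highest gene of the neuron list was snb-1, at 7.69 log2 CPM over the 8 libraries, and its own groups overlapped. Germ line and oocyte genes had a median of 0.090 with 11 of 12 above 0, intestinal genes 0.18 with 8 of 9 above 0, body wall muscle genes 0.14 with 8 of 9 above 0, and epidermal genes −0.18 with 5 of 6 below 0. Without DMSO 4 the median was 0.050 for germ line and oocyte, 0.10 for intestine and −0.070 for epidermis, and without zidovudine 4 it was 0.043 for germ line and oocyte and 0.075 for body wall muscle. Without zidovudine 3 it was −0.11 for epidermis. No listed marker was at 0 reads over all libraries, and none passed an adjusted p of 0.05 in limma, where the smallest was 0.0650, for the intestinal protease gene cpr-1. Transcript length was not taken out of these lists. Of the sperm genes, msd-1 and msd-2 have 330 nt of exon and msp-36 and msp-56 384 nt. All tested genes under 500 nt had a median of −0.34. The sperm genes gsp-3 and gsp-4, with 1115 and 1158 nt, had −0.32 and −0.31. Values of the others were −0.15 for spe-11 (977 nt), −0.11 for fer-1 (6267 nt) and 0.38 for spe-41 (2727 nt). The pharynx genes myo-1 and myo-2 have 6457 and 6334 nt, and all genes from 5000 nt up had a median of 0.11. For tnt-4, with 1366 nt, the value was 0.51, or 0.37 without DMSO 1 and 0.71 without DMSO 4. Values of the others were 0.36 for phat-3 (922 nt), 0.34 for pha-4 (2158 nt), 0.13 for marg-1 (1728 nt) and 0.041 for tni-4 (821 nt). Of the neuron genes, the longest, unc-13 and unc-104 with 6864 and 5514 nt, had 0.27 and 0.25. The shortest, sbt-1 and snb-1 with 791 and 807 nt, had 0.23 and 0.11. The parts of length in these lists and of tissue makeup in the values of the proteasome genes were not tested.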

How the data were processed

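Whole-worm RNA was captured on oligo-dT beads and sequenced from directional libraries, per the labels' protocols. The authors deposited 1 table in which each sample has a column, and per the file headers it holds CPM, but negative values show the deposited unit to be log2 CPM. Tools named, with no role, in the submitters' processing notes are limma 3.40.6, edgeR 3.26.8, HTSeq 0.11.0, HISAT2 2.1.0, Trimmomatic 0.32 and FastQC. For the counting, the genome build, annotation and strand setting were not given in the sources used here. On the linear scale 100% of the values were whole reads within 0.05 reads above a prior of 2 reads, which gave the reads behind each value. This prior draws the fold changes of weakly expressed genes toward 0.

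Log2 CPM were tested with limma-trend (limma 3.58.1, R 4.3.3; robust, two-sided, 6 residual degrees of freedom, group as the only term), since the unit was log2 and not counts. The Benjamini-Hochberg adjustment covered all 12382 genes whose mean was at least 0 log2 CPM. Exon lengths (union of exons) and positions came by gene ID from Ensembl release 115 (WBcel235). The length trend was a loess fit (span 0.5) of each library's deviations on log2 length. The scripts were checked on simulated data. Between replicates the chi-square of the reads, per degree of freedom, was 17.5 to 88.2, above sampling noise.

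Proteasome genes and lists were chosen with earlier results of these data known. Values in every library are given for members past the threshold, or else, in each particle, for the 4 with the smallest p and the 2 with the largest fold change, and for pbs-5, rpn-6.1 and rpn-10. rpn-6.2 was added after its values were seen. Each pathway list gives the gene with the smallest p, and skn-1 and ddi-1 whatever their result; psmd-9 was added after its values were seen. psme-3 carries the name Y66D12A.9 in the file and was matched by gene ID. Alternatives were quantile normalization, library totals as the only scaling, a prior of 0.5 reads, voom, no variance trend, the filter dropped or raised to 1 log2 CPM, sample quality weights, the replicate block, leaving out each library, leaving out DMSO 4 with zidovudine 2, and removal of the length trend. Leaving out each library for the gene lists and subunit classes was chosen after seeing the data.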

Additional observations from a re-analysis of the deposited data

Results flagged for a closer look

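Among the 33 proteasome genes and the group summaries, a library stood apart from the other 3 of its group in 5 of 74 groups of 4, where chance gives about 1 in 20. In zidovudine 1, pbs-1 had 7.59 log2 CPM against 7.87 to 7.92 in the other zidovudine libraries, pbs-3 had 7.36 against 7.51 to 7.53, and pbs-5 had 7.57 against 7.79 to 7.82. In zidovudine 4, rpt-6 had 7.76 log2 CPM against 7.57 to 7.59 in the other zidovudine libraries. In DMSO 1, rpt-1 had 8.31 log2 CPM against 8.41 to 8.42 in the other DMSO libraries. Without zidovudine 1 the fold changes of pbs-1, pbs-3 and pbs-5 were 0.13, 0.040 and 0.043, against 0.053, −0.00079 and −0.016 with it; without zidovudine 4 that of rpt-6 was −0.042, against 0.0035 with it.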

How the results depend on the processing

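No proteasome gene passed an adjusted p of 0.05 in limma under any of the 19 other settings tried, where the smallest adjusted p was 0.181, for pas-4 without zidovudine 2. The core and regulatory medians and the core minus regulatory difference moved by less than 1 SD between libraries in all 19. That SD was 0.064, 0.080 and 0.068, larger in size than the values themselves, so this does not show that they were steady. With the length trend removed the core median was −0.012, against −0.056, and the difference was −0.00064, against −0.063. Leaving out each library in turn gave −0.087 to −0.028 for the core median, −0.017 to 0.039 for the regulatory median and −0.10 to −0.039 for the difference. The number of all tested genes past the threshold, 21, also moved. It was 12 with library totals as the only scaling, 4 with no variance trend, 148 with sample quality weights, 156 without DMSO 4 and zidovudine 2 together, and 4 to 41 when each library was left out; the cause was not tested.

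With the replicate block it was 9, which changed no call for a proteasome gene. Same-numbered libraries had correlations of their deviations of 0.067, −0.18, 0.14 and −0.32, and not every library correlated best with its own number, so the numbers were not taken as pairs.

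Of the 627 fold changes of single members under other settings, 74 changed sign, in 20 members, and no value that did so was larger in size than 0.076. The settings for the variance trend, the filter and the replicate block leave the fold changes as they are, so their values could not change sign. Under quantile normalization they were −0.019 for pas-6, −0.0071 for rpn-2, −0.012 for rpn-3, −0.0052 for rpn-9, −0.0041 for rpt-4 and −0.017 for rpt-6. With library totals they were −0.0075 for pas-6, −0.0079 for rpn-9 and −0.0055 for rpt-6. With sample quality weights they were −0.0066 for pas-6, −0.0097 for rpn-9, 0.0041 for rpt-5, −0.010 for rpt-6 and 0.0057 for rpn-6.2. With the length trend removed they were 0.057 for pbs-3, 0.0021 for pbs-5, 0.0035 for pbs-6, −0.036 for rpn-2, −0.012 for rpn-3, −0.0023 for rpn-7, −0.0050 for rpn-9, −0.0046 for rpt-4 and −0.0082 for rpt-6. Without DMSO 4 and zidovudine 2 together they were −0.018 for rpn-9, −0.0093 for rpn-10, 0.0037 for rpt-1, 0.0056 for rpt-2, 0.020 for rpt-5, 0.064 for rpn-6.2 and 0.013 for rpn-13.

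Leaving out each library in turn gave −0.038 to 0.044 for pas-6, −0.098 to 0.0067 for pbs-2, −0.020 to 0.040 for pbs-3, −0.070 to 0.043 for pbs-5 and −0.097 to 0.0019 for pbs-6. It gave −0.023 to 0.057 for rpn-2, −0.017 to 0.055 for rpn-3, −0.0062 to 0.095 for rpn-5, −0.014 to 0.069 for rpn-7, −0.022 to 0.035 for rpn-9, −0.030 to 0.088 for rpn-10, −0.052 to 0.035 for rpn-11 and −0.13 to 0.022 for rpn-6.2. For the ATPases it gave −0.020 to 0.062 for rpt-3, −0.031 to 0.039 for rpt-4, −0.046 to 0.026 for rpt-5 and −0.042 to 0.030 for rpt-6. Other members kept their sign, of which −0.083 to −0.041 for pas-5, −0.070 to −0.0012 for pas-7, 0.015 to 0.13 for pbs-1, 0.015 to 0.099 for rpn-1, 0.019 to 0.082 for rpn-12, −0.10 to −0.011 for rpn-13 and −0.067 to −0.0027 for rpt-1 had wide ranges. Members had 738 to 23264 reads per library, so the spread between libraries rather than read number limits the precision.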
